A study of Mus musculus with 40 samples.

Results

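Pressure overload was compared with sham surgery in mouse hearts that overexpress the microRNA miR-378a, by asking for each gene how much of its RNA lay in the RNA-induced silencing complex (RISC) relative to its messenger RNA in the same heart. The comparison used 10 transgenic (TG) hearts, 3 sham and 7 with transverse aortic constriction (TAC). Each heart gave an mRNA library and a RISC library joined by its animal code, so 20 of the 40 libraries of the series enter the comparison directly. The other 20 libraries come from 3 sham and 7 TAC hearts of non-transgenic (ntg) mice, and served for the shared error estimate and for the test of whether the 2 genotypes differ. All mice were labelled FVB/N, male and 12 weeks old, and TAC hearts were taken after 2 weeks of constriction. The series text gives 8 weeks as the lowest age. Sections of frozen heart without the right ventricle gave either total RNA for an oligo(dT) mRNA library or a cleared lysate from which Argonaute 2 was immunoprecipitated for the RISC library. The promoter that drives the miR-378a transgene was not given in the sources used here.

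In RISC, an Argonaute protein holds a microRNA whose seed, bases 2 to 8 from the 5′ end, pairs with sites mostly in the 3′ untranslated regions (UTRs) of messenger RNAs and lowers their translation and stability. RNA recovered with Argonaute 2 therefore includes targeted messages, while the RISC-to-mRNA ratio sets that recovery against the abundance of each message. TAC narrows the aorta, so the left ventricle pumps against a higher pressure and grows, with re-expression of fetal cardiac genes. miR-378a lies in an intron of Ppargc1b, a coactivator of mitochondrial genes, and is abundant in heart and other tissues rich in mitochondria.

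The cardiac myosin genes carry microRNAs of their own. Both are shown because their hosts, Myh6 and Myh7, and a known miR-208a target, Med13, were followed here by name. The mature sequences are given 5′ to 3′ from RefSeq (GRCm38.p6, minus strand of chromosome 14), with the seed in capitals. miR-208a-3p lies within Myh6 at chr14:54949072-54949093 and miR-208b-3p within Myh7 at chr14:54975710-54975731.
mmu-miR-208a-3p: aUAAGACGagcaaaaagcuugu
mmu-miR-208b-3p: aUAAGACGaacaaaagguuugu
They share the seed and differ at 3 of 22 bases. The libraries are not small-RNA libraries, so counts on these genes come from longer RNA. Mir208b had 29 to 32 reads in the TG sham mRNA libraries and 19 to 50 in the TAC mRNA libraries, and its ratio changed by -0.01 ± 0.546 (log2, SE, adjusted p = 0.998, edgeR quasi-likelihood test). Mir378 had 0 reads in every TG library.

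Without the ribosomal RNA feature Rn45s, TG mRNA libraries held 10.6 to 24.1 M counts and TG RISC libraries 5.58 to 10.6 M. Rn45s itself took 5.34% to 9.03% of mRNA counts and 48.5% to 62.0% of RISC counts. Although the labels give male mice, Xist stood at 129 to 149 CPM (counts scaled to a common library total) in the 3 TG sham mRNA libraries and at 1.17 to 2.06 CPM in the 7 TG TAC mRNA libraries. The summed level of the Y-linked genes Ddx3y, Eif2s3y, Kdm5d and Uty was 0.283 to 0.974 CPM in those sham libraries and 85.8 to 132 CPM in the TAC libraries. The ntg sham mRNA libraries also had Xist at 125 to 139.5 CPM. Surgery and this difference cannot be told apart, and genes on X and Y were left out. Column names of the deposited series tables mark these control hearts as having had no surgery, while the labels call them sham. Labelled ventricle carried the defining cardiomyocyte genes, with the 10 markers summing to 92902 to 109285 CPM over the TG mRNA libraries. Levels of atrial genes differed between the 2 samples of a heart. Bmp10, an atrial gene, was at 174 CPM in the mRNA library and 0.761 CPM in the RISC library of TAC heart 4. In those of sham heart 3 it was at 0.196 and 256 CPM. The atrial genes did not always go together: in TAC heart 2 Bmp10 was at 0.249 and 71.6 CPM, and Myl7 at 139 and 12.6 CPM. Gene by gene over 9320 genes, the RISC and mRNA libraries of a heart deviated together with a correlation above 0.1 in 9 of 10 TG hearts. TAC heart 3 was the exception at -0.031. In 8 of 10 TG hearts the RISC library correlated best with its own mRNA library, and in TAC hearts 3 and 4, the latter at 0.109 with its own, it correlated better with that of another heart, at 0.245 and 0.310. Without both of these hearts the ratio had 24 calls in place of the 4 reported below.

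Far more genes were called between sham and TAC hearts in mRNA and in RISC than in the ratio between them. The 3 tests differ in their error, so these counts do not say how many genes changed in each. In mRNA libraries, 898 genes rose and 909 fell among 13670 tested (6.57% and 6.65%, 13.2% in all; adjusted p below 0.05, edgeR quasi-likelihood test). In RISC libraries, 587 rose and 516 fell among 12923 (4.54% and 3.99%, 8.54% in all). In the ratio, 4 of 13758 autosomal genes were called (0.0291%), all 4 higher and 0 lower after TAC. At an unadjusted p below 0.05 the ratio was higher for 739 genes and lower for 681 (5.37% and 4.95%, 10.3% in all). Without sham heart 1, 2 or 3, or TAC heart 1, 3 or 5, the ratio had 0 calls, and it had 34, 30, 21 and 6 without TAC heart 2, 4, 6 and 7. Without sham heart 2 there were 974 calls in mRNA and 484 in RISC, without sham heart 1 there were 1054 and 617, and without sham heart 3 there were 582 in RISC. The smallest adjusted p among genes with a lower ratio was 0.0525. The median ratio change over all genes was -0.02 on the log2 scale, with 90% of genes between -0.61 and 0.63 and a median SE of 0.217. The replicate spread of the log2 ratio had a median SD of 0.259 over 3 sham hearts and 0.277 over 7 TAC hearts.

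The 876 genes that rose in mRNA and were also tested in RISC had a median mRNA change of 0.48 and a median RISC change of 0.42 (log2), and none of them was called in the ratio. The 893 genes that fell in mRNA had medians of -0.37 in mRNA and -0.27 in RISC, and 2 of them were called in the ratio. Their median ratio changes were -0.11 and 0.08. mRNA is the denominator of the ratio, so errors in mRNA push these 2 medians away from the mRNA change by construction.

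**Figure D1:**
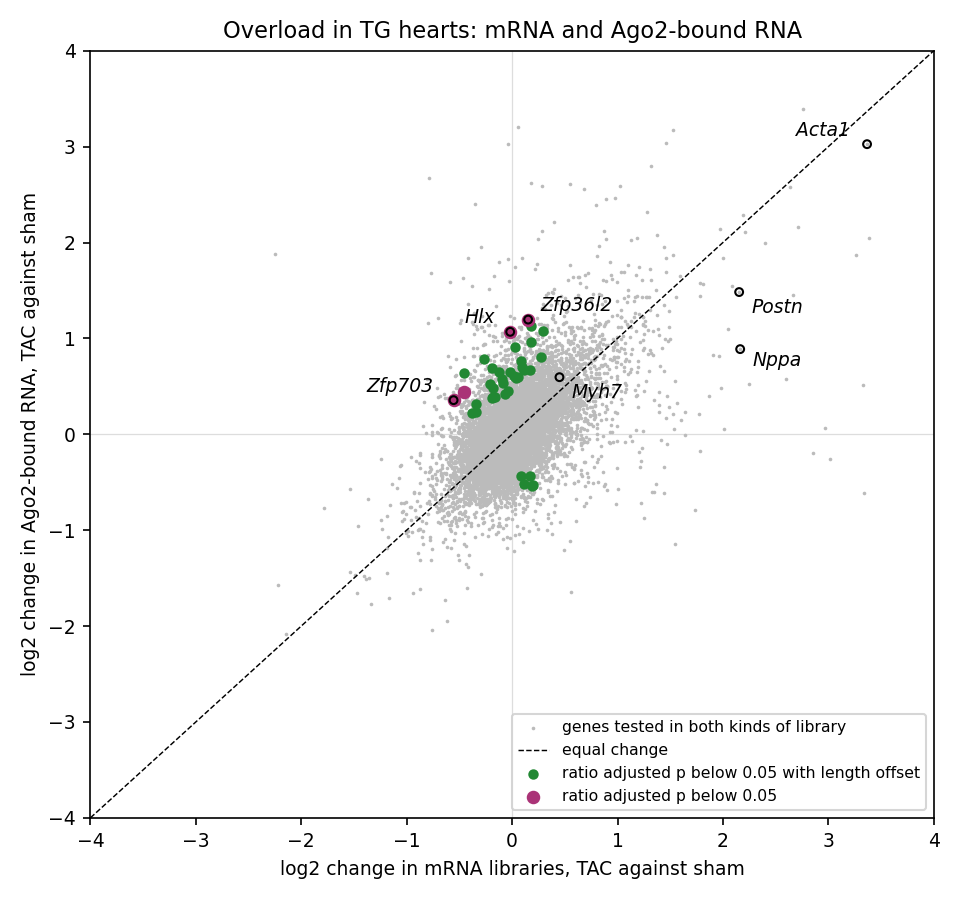
Each point is 1 of 12776 genes tested in all 3 fits, placed by its TAC-less-sham log2 change in TG mRNA (x) and TG RISC (y), with 9 genes outside the axes of plus or minus 4. The cloud follows the diagonal of equal change, and the 4 genes with a called ratio (purple) lie above it, with the genes called under a length offset in green.

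Hlx, Zfp36l2, Zfp703 and Mfsd4 are the 4 genes whose RISC-to-mRNA ratio rose. RISC rose for Hlx, Zfp36l2 and Mfsd4, and mRNA fell for Zfp703 and Mfsd4. No difference between the genes was tested. All 4 had every TAC heart above every sham heart, which 2.49% of all tested genes showed in that direction (4.83% in either direction). The annotation is the mm10 gene model used for counting, and levels are CPM in TG libraries. A value of the ratio is log2 RISC CPM minus log2 mRNA CPM.

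Hlx encodes a homeobox transcription factor (chr1:184727145-184732493, minus strand). Its 3′ UTR has 364 bases within 2147 exonic bases. In RISC libraries it stood at 8.89, 6.39 and 6.05 CPM in the sham hearts and at 11.5 to 17.8 CPM (median 15.8) in the TAC hearts. In mRNA libraries the sham hearts had 13.9, 9.76 and 11.2 CPM and the TAC hearts 8.74 to 16.7 CPM (median 11.1). The groups were apart in RISC and overlapped in mRNA. The log2 ratio was -0.63, -0.60 and -0.88 in the sham hearts and 0.09 to 0.66 (median 0.35) in the TAC hearts. The ratio rose by 1.06 ± 0.208 (log2, SE, adjusted p = 0.0425), RISC by 1.07 ± 0.20 (adjusted p = 0.00088), and the mRNA change was -0.02 (adjusted p = 0.97; edgeR quasi-likelihood tests).

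Zfp36l2 encodes an RNA-binding zinc finger protein that binds AU-rich elements and speeds the decay of the messages that carry them (chr17:84183928-84187947, minus strand). Of its 3533 exonic bases, 1825 are 3′ UTR. RISC levels were 65.6, 49.6 and 67.2 CPM in the sham hearts and 111 to 176 CPM (median 133) in the TAC hearts. The mRNA levels were 28.8, 18.1 and 31.9 CPM against 23.8 to 35.0 CPM (median 29.6). Every TAC heart exceeded every sham heart in RISC, and the mRNA ranges overlapped. The ratio rose from 1.18, 1.44 and 1.07 to between 1.78 and 2.76 (median 2.19), by 0.99 ± 0.187 (adjusted p = 0.0425). RISC rose by 1.20 ± 0.14 (adjusted p = 6.2e-07), and the mRNA change was 0.15 (adjusted p = 0.57; edgeR quasi-likelihood tests).

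Zfp703 encodes a zinc finger transcriptional corepressor (chr8:26977336-26981462, plus strand), and 2903 of its 3305 exonic bases are 3′ UTR. Its mRNA was 44.4, 32 and 39.5 CPM in the sham hearts and 21.4 to 32 CPM (median 25.4) in the TAC hearts. RISC levels were 36.1, 26.7 and 22.7 CPM against 31.3 to 44.3 CPM (median 34). Here the message was low in the TAC hearts while the RISC ranges overlapped. The ratio was -0.30, -0.26 and -0.80 in the sham hearts and 0.12 to 0.93 (median 0.44) in the TAC hearts. The ratio rose by 0.90 ± 0.171 (adjusted p = 0.0425), mRNA fell by 0.56 ± 0.12 (adjusted p = 0.0033), and the RISC change was 0.36 (adjusted p = 0.14; edgeR quasi-likelihood tests).

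Mfsd4 encodes a membrane protein of the major facilitator family of transporters (chr1:132026621-132068062, minus strand), with 2135 of 4853 exonic bases in the 3′ UTR. Its mRNA was 38.5, 37.4 and 40.2 CPM in the sham hearts and 25.3 to 30.4 CPM (median 28.5) in the TAC hearts. RISC levels were 52.3, 54.4 and 57.9 CPM against 61.9 to 86.3 CPM (median 72.6). Sham and TAC hearts were apart in both kinds of library, in opposite directions. The ratio was 0.44, 0.54 and 0.52 in the sham hearts and 1.12 to 1.53 (median 1.33) in the TAC hearts. The ratio rose by 0.87 ± 0.160 (adjusted p = 0.0425), mRNA fell by 0.46 ± 0.08 (adjusted p = 0.0014), and RISC rose by 0.44 ± 0.13 (adjusted p = 0.023; edgeR quasi-likelihood tests).

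These 4 calls stood close to the threshold, and their adjusted p reached 0.279 with 1 heart left out. The size of the change held with any 1 TG heart left out, at 0.969 to 1.11 for Hlx, 0.907 to 1.10 for Zfp36l2, 0.727 to 1.00 for Zfp703 and 0.835 to 0.905 for Mfsd4.

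**Figure D2:**
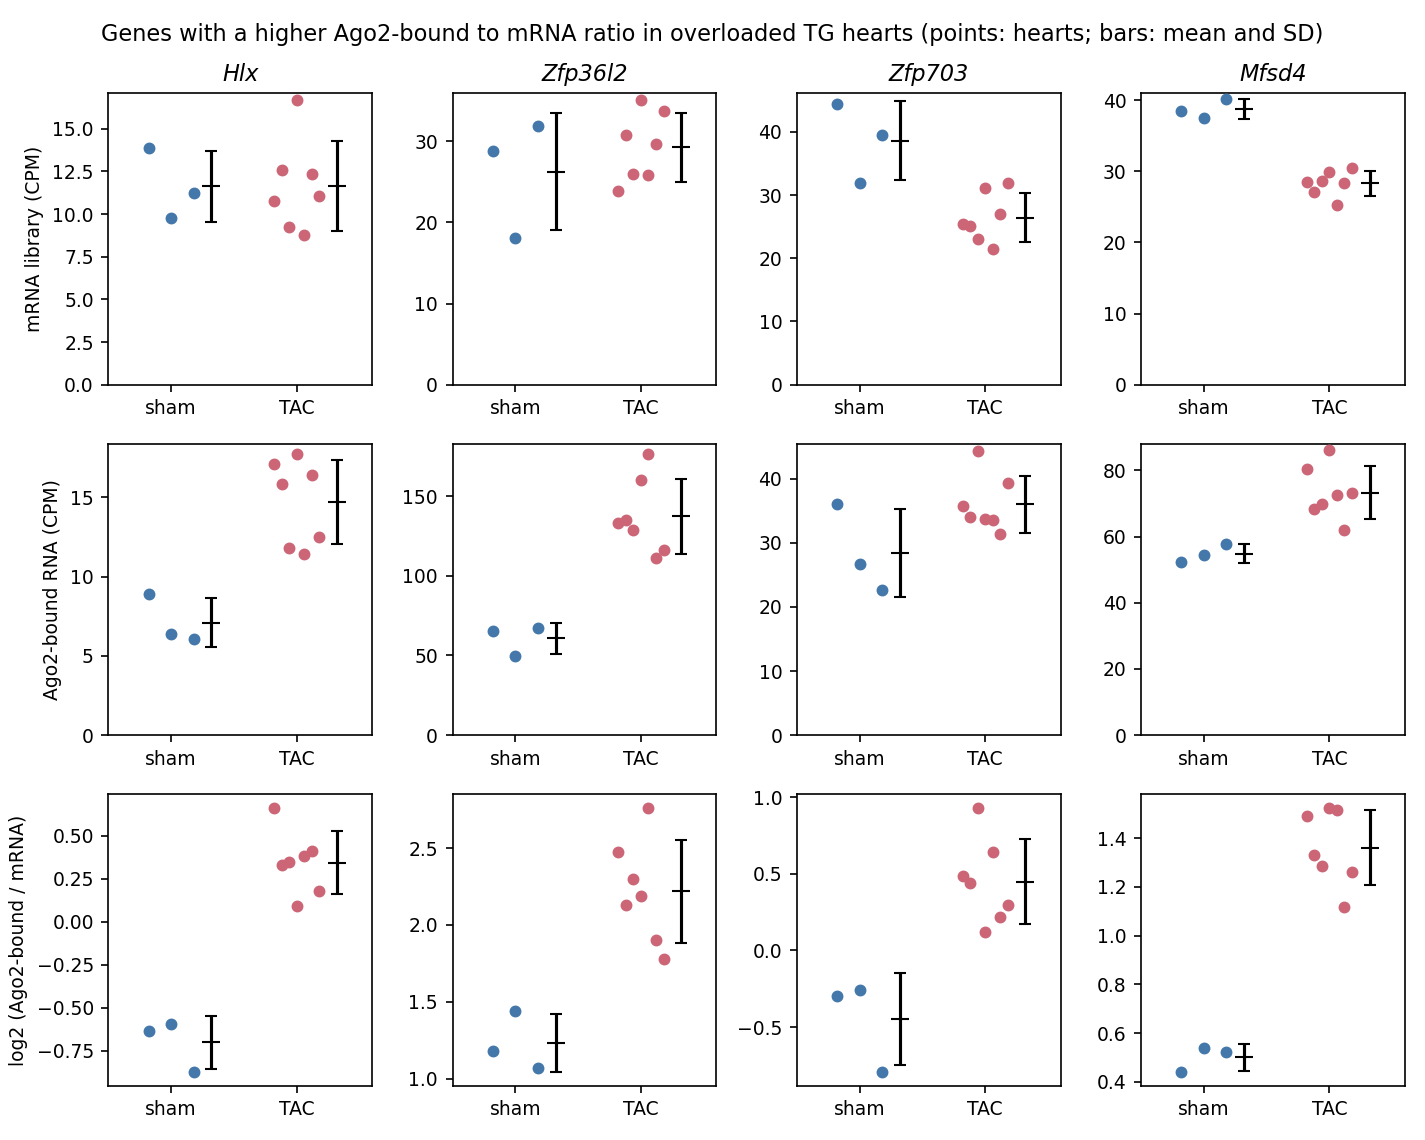
For Hlx, Zfp36l2, Zfp703 and Mfsd4, points show each TG heart's level in mRNA and RISC (Ago2-bound) libraries in CPM and its log2 RISC-to-mRNA ratio, for 3 sham and 7 TAC hearts, with bars at the mean and SD. Ratios of the 7 TAC hearts lie above those of the 3 sham hearts in all 4 genes.

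A smooth offset removed differences between hearts in how the ratio depends on exonic length. With it 38 genes were called, 33 higher and 5 lower (0.24% and 0.0363%, 0.276% in all), with the 4 genes above among them. The sham and TAC hearts did not overlap in 36 of the 38, against 4.83% of all genes tested. The calls rest on the same difference between these hearts, so this separation is no separate support for them. In the main fit the other 34 had adjusted p above 0.05, and they were called only in the length-corrected fit. Their levels, ratios, log2 changes and SEs below are without the offset, except where the offset is named. They were picked for naming after their values were seen. Of the 33 higher genes, 28 rose in RISC, 5 fell in mRNA and 1 rose in mRNA. All 5 lower genes fell in RISC and 0 of them changed in mRNA. Over all genes tested, 4.54% rose and 3.99% fell in RISC, and 6.57% rose and 6.65% fell in mRNA. RISC and mRNA make up the ratio by which these genes were called, so these counts are no separate support. The 38 genes kept their direction without any 1 TG heart, but the count of calls ran from 0 without sham heart 1 or sham heart 3 to 62 without TAC heart 6. It was 25 without sham heart 2, 1 without TAC heart 3, 50 without TAC heart 4, and 9, 54, 10 and 9 without TAC hearts 1, 2, 5 and 7.

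The 33 higher genes included Eif2c2, which encodes Argonaute 2 itself, the protein pulled down to make the RISC libraries (chr15:73101625-73184947, minus strand). Its RISC level was 277, 290 and 336 CPM in the sham hearts and 323 to 435 CPM (median 410) in the TAC hearts, and its mRNA was 90.7, 88.8 and 88.8 against 69.0 to 86.8 CPM (median 79.2). The mRNA groups were apart and the RISC groups overlapped slightly. The ratio went from 1.61, 1.71 and 1.92 to between 1.96 and 2.51 (median 2.24). The change was 0.54 ± 0.129 (adjusted p = 0.0733), and 0.57 (adjusted p = 0.0306) with the length offset. RISC rose by 0.38 (adjusted p = 0.03), and the mRNA change was -0.19 (adjusted p = 0.11; edgeR quasi-likelihood tests).

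Ppargc1b, the host gene of miR-378a, was also among them. Its RISC level was 131, 141 and 109 CPM in the sham hearts and 150 to 191 CPM (median 164) in the TAC hearts, while mRNA was 58.8, 58.3 and 54.6 against 43.0 to 63.4 CPM (median 48.4). RISC levels were apart and mRNA levels overlapped. The ratio was 1.15, 1.27 and 0.99 in the sham hearts and 1.5 to 1.83 (median 1.70) in the TAC hearts. The change was 0.55 ± 0.132 (adjusted p = 0.0733), with an adjusted p of 0.0368 after the length offset (edgeR quasi-likelihood test).

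Further genes of the 33 are given with their known roles, as examples. Tet3, which oxidizes methylated cytosine in DNA, had 95.3, 128 and 98.0 CPM in sham RISC libraries and 145 to 254 CPM (median 210) in TAC RISC libraries. Its ratio changed by 0.75 ± 0.161 (adjusted p = 0.0525, and 0.0302 with the offset). Dnmt3a, which places methyl groups on cytosine, had ratios of 1.00, 1.03 and 1.03 in the sham hearts and 1.21 to 1.73 (median 1.51) in the TAC hearts, with 0.0463 as the adjusted p under the offset. For both genes the RISC groups were apart. The transcription factor genes Mnt, Nfic, Zbtb7a, Pou2f1 and Hic1 and the ubiquitin ligase gene Rnf44 were also called.

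Notch3, a receptor of vascular smooth muscle and pericytes, had 89.9, 91.7 and 82.2 CPM in sham RISC libraries against 119 to 162 CPM (median 130), and 136, 123 and 125 CPM in sham mRNA libraries against 93.5 to 152 CPM (median 131). RISC was apart and mRNA overlapped, and the ratio changed by 0.64 ± 0.131 (adjusted p = 0.0525, and 0.0221 with the offset). Slc6a6, the taurine transporter, changed by 0.46 (0.114 and 0.0446). Sri, which encodes the calcium-binding regulator sorcin, changed by 0.66 (0.0816 and 0.0463). Ppard, a nuclear receptor for fatty acids, changed by 0.62 (0.0733 and 0.0446) and its mRNA fell by 0.34 (adjusted p = 0.012). Ankrd52, a regulatory subunit of protein phosphatase 6 that in human cells takes part in removing phosphate from Argonaute 2, changed by 0.57 (0.0525 and 0.0221) and its mRNA fell by 0.38 (adjusted p = 0.0023). Dpm1, which makes the mannose donor for glycosylation, had the sham ratios -2.63, -2.0 and -2.53 against -1.81 to -0.77 (median -1.59), a change of 1.06 ± 0.227 (0.0525 and 0.0368). Values in parentheses in this paragraph are adjusted p in the main and the length-corrected edgeR fit.

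The 5 lower genes were Top2b, Tmf1, Psip1, Bod1l and Gcc2. Top2b, a DNA topoisomerase, had 84.5, 94.8 and 122 CPM in sham RISC libraries and 57.5 to 92.1 CPM (median 60.4) in TAC RISC libraries. Its ratio was 2.66, 2.72 and 2.78 in the sham hearts and 1.62 to 2.54 (median 1.85) in the TAC hearts, a change of -0.75 ± 0.165 (adjusted p = 0.0525 and, with the offset, 0.0407). Tmf1, which encodes a coiled-coil protein of the Golgi, had ratios of 2.14, 1.96 and 2.36 against 1.12 to 1.84 (median 1.41). Psip1, which encodes a chromatin-binding coactivator, had ratios of 1.46, 1.26 and 1.38 against 0.24 to 1.01 (median 0.65). In all 5 the ratios of the sham hearts lay above those of the TAC hearts, as for 2.34% of all genes tested.

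The 2 groups of length-corrected calls differed in the median lengths of their gene models, while their ranges of 3′ UTR length overlapped. The 33 higher genes had a median 3′ UTR of 2793 bases (364 to 10584, the longest being Pou2f1, whose model overlaps Cd247) and a median coding length of 1773 bases. The 5 lower genes had medians of 1338 and 4836 bases, with 3′ UTRs of 321 to 3404 bases. Over 13137 genes with a 3′ UTR length the medians were 955 and 1392 bases. These are descriptions, since the offset used exonic length and no test was made on the lists.

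None of the overload markers followed by name was called in the ratio. Acta1, skeletal alpha-actin and part of the fetal program, had 347, 258 and 172 CPM in sham mRNA libraries and 1492 to 5220 CPM (median 1960) in TAC mRNA libraries, and 111, 135 and 101 against 576 to 1737 CPM (median 695) in RISC. Both separated the groups. It rose by 3.37 ± 0.41 in mRNA (adjusted p = 0.00014) and by 3.03 ± 0.41 in RISC (adjusted p = 0.00036), and the ratio change was -0.40 ± 0.214 (adjusted p = 0.545). Postn, the matrix protein periostin made by activated fibroblasts, rose by 2.15 in mRNA and by 1.48 in RISC (adjusted p = 0.0027 and 0.013), with a ratio change of -0.65 ± 0.361 (adjusted p = 0.573). Myh7, the slow beta-myosin heavy chain, whose model overlaps D830015G02Rik, rose by 0.45 and by 0.60 (adjusted p = 0.028 and 0.013), with a ratio change of 0.09 (adjusted p = 0.898). Myh6, the adult alpha-myosin, changed by -0.18 in mRNA and -0.33 in RISC (adjusted p = 0.2 and 0.056), and by -0.18 in the ratio (adjusted p = 0.665). All are edgeR quasi-likelihood tests.

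The natriuretic peptide genes were not called. Nppa had 1874, 967 and 562 CPM in sham mRNA libraries and 3432 to 7323 CPM (median 4872) in TAC mRNA libraries, and 833, 796 and 681 CPM against 533 to 2142 CPM (median 1314) in RISC. The mRNA groups were apart and the RISC groups overlapped. The change was 2.16 in mRNA (adjusted p = 0.11), 0.89 in RISC (adjusted p = 0.24) and -1.59 ± 0.897 in the ratio (adjusted p = 0.584; edgeR quasi-likelihood tests). Nppa is also an atrial gene. The 7 other atrial markers summed to 33.5 to 651 CPM in sham and 89.7 to 1533 CPM in TAC mRNA libraries, and to 347 to 562 CPM in sham and 164 to 909 CPM in TAC RISC libraries, and no marker was at 0. Of the 8 markers with Nppa, 0 were called in mRNA, RISC or the ratio, their median ratio change was -1.92, and their part in the Nppa values was not tested. Nppb changed by 0.24 in mRNA (adjusted p = 0.54) and -0.24 in the ratio (adjusted p = 0.717).

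Further genes were followed by name, among them reported targets of miR-378a and miR-208a. Grb2, an adaptor of growth factor signalling reported as a miR-378a target, changed in the ratio by 0.12 ± 0.126 (adjusted p = 0.794). Med13, a Mediator subunit targeted by miR-208a, changed by -0.11 ± 0.129 (adjusted p = 0.836). Hspb6, which encodes the heat shock protein HSP20, changed by -0.53 ± 0.193 (adjusted p = 0.287). Cmya5, which encodes myospryn and shares positions with other gene models, changed by -0.15 ± 0.128 (adjusted p = 0.747), and Ryr1, the skeletal muscle calcium release channel, by -0.35 ± 0.445 (adjusted p = 0.846). Ryr1 mRNA fell by 0.89 ± 0.25 (adjusted p = 0.021; edgeR quasi-likelihood tests). Sham and TAC hearts here all carry the transgene, so its effect on its targets was not tested by this comparison. Of 10 reported miR-378 targets, 0 were called in the ratio, with 1 higher and 1 lower at an unadjusted p below 0.05 and a median of 0.01. Those were Igf1r, the insulin-like growth factor 1 receptor, at 0.26, and Pik3ca, a catalytic subunit of phosphoinositide 3-kinase, at -0.34. Crat, the carnitine acetyltransferase hosted in mitochondria, fell by 0.31 in mRNA (adjusted p = 0.015) and by 0.41 in RISC (adjusted p = 0.0048), and its ratio change was -0.13.

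The counts of the gene lists are read against the shares over all genes given above, 6.57% higher and 6.65% lower in mRNA, 4.54% and 3.99% in RISC, and 5.37% and 4.95% in the ratio at an unadjusted p below 0.05. Among 40 collagen and matrix genes, 26 rose in mRNA and 22 in RISC with 0 falling in either, at median changes of 0.81 and 0.87, and the median ratio change was -0.01. Col1a1 rose by 1.31 in mRNA and by 1.61 in RISC, Ltbp2 by 2.21 and by 2.11, and Col8a1 by 1.55 and by 1.43. Fibroblast markers, 10 in all with none at 0, summed to 1288 to 1427 CPM in sham and 1658 to 3654 CPM in TAC mRNA libraries. In bulk tissue more cells of a type and more RNA per cell cannot be told apart. Among 15 overload markers, 8 rose and 1 fell in mRNA, 6 rose and 2 fell in RISC, and the median ratio change was -0.22 against -0.02 over all genes, with 0 higher and 3 lower at an unadjusted p below 0.05. The mean log2 ratio of this list was -0.43 to -0.17 in the sham hearts and -0.78 to -0.57 (median -0.63) in the TAC hearts, so the groups were apart. That mean includes Nppa, whose ratio change was -1.59. In ntg hearts the median ratio change of the list was also -0.22. Ankrd1, a stretch-responsive nuclear cofactor, rose by 1.49 and by 1.12, and Xirp2, an intercalated disc protein, by 1.25 and by 0.45. No member of these lists was called in the ratio.

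Of 34 complex I genes, 10 fell and 0 rose in mRNA, while 2 rose and 2 fell in RISC. Their median ratio change was 0.26, or 0.14 with the length offset, and 10 were higher and 0 lower at an unadjusted p below 0.05. Complexes II to V had 6 of 39 falling in mRNA and a median ratio change of 0.11, or 0.03 with the offset, with 7 higher and 0 lower. Of 73 mitochondrial ribosomal proteins, 8 fell in mRNA, and 11 were higher and 0 lower in the ratio at an unadjusted p below 0.05, with a median of 0.08, or 0.01 with the offset. The tricarboxylic acid cycle had 10 of 18 genes falling in mRNA and 5 in RISC, and a median ratio change of -0.01. Fatty acid oxidation had 7 of 27 falling in mRNA and 5 in RISC, with 0 higher and 3 lower in the ratio at an unadjusted p below 0.05, and a median of -0.03. No member of the 5 lists was called in the ratio. The counts at an unadjusted p are without the offset, where short genes in general were more often higher. Genes under 500 exonic bases had 13 higher and 0 lower of 162. The next longer class had 78 and 9 of 806, and the one after it 162 and 88 of 3011. Median exonic length was 666 bases for complex I, 679 for complexes II to V and 1055 for mitochondrial ribosomal proteins. A difference between these lists and other genes of their length was not tested.

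Histone genes had the highest median among lists with more than 10 tested members. Over 33 core and linker histone genes it was 0.51, or 0.38 with the offset, with 7 higher and 0 lower at an unadjusted p below 0.05, and 5 of 31 rose in RISC. These counts are also without the offset, and the median exonic length of the list was 957 bases. Hist1h1e, a linker histone, had 8.89, 8.61 and 6.39 CPM in sham RISC libraries and 12.1 to 18.5 CPM (median 16.2) in TAC RISC libraries, while its mRNA was 1.38, 1.54 and 2.15 against 0.92 to 2.37 CPM (median 1.72). Its ratio was 2.53, 2.35 and 1.49 in the sham hearts and 2.50 to 3.47 (median 3.16) in the TAC hearts, so the groups overlapped. Its gene model overlaps Hist1h2be. In the oligo(dT) mRNA libraries 24 histone genes passed the filter, against 31 in RISC. Mean TG mRNA levels were as low as 0.095 CPM for Hist1h3f and 0.127 CPM for Hist1h1b, against 173 CPM for H3f3a, so some ratios rest on very few mRNA reads. Histone genes are members of near-identical families, so counts may be split between copies.

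Of 25 heat shock genes, 5 fell and 2 rose in mRNA, and 10 fell and 2 rose in RISC. The median ratio change was -0.17, with 1 higher and 7 lower at an unadjusted p below 0.05. Hsp90aa1, the inducible cytosolic chaperone HSP90, changed by -0.58 in the ratio (adjusted p = 0.11). Calcium handling and ion channel genes had a median of -0.10, with 3 higher and 7 lower at an unadjusted p below 0.05 among 26. Casq2, which buffers calcium in the sarcoplasmic reticulum, was at -0.54, its partner Trdn at -0.74, and Atp2a2, the calcium pump, at -0.35, against 0.76 for the pacemaker channel gene Hcn4. Of the 26, 7 fell and 1 rose in RISC. No member was called in the ratio.

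The Argonaute and microRNA machinery had 25 tested members, a median of 0.01, and 3 higher and 4 lower at an unadjusted p below 0.05. In RISC, 4 rose and 4 fell. Tnrc6b and Tnrc6c, the GW182 proteins that bind Argonaute and recruit deadenylases, were at 0.38 and 0.44 in the ratio. Ddx17 and Ddx5, the helicases that assist the nuclear microRNA processor, were at -0.36 and -0.28. With the length offset 1 member, Eif2c2, was called. Sarcomere genes had a median of 0.01 with 5 of 25 higher and 1 lower at an unadjusted p below 0.05. Cytosolic ribosomal proteins had 5 higher and 3 lower of 76 and a median of 0.04. Of the marker lists for other cells, endothelial markers had a median of 0.07, macrophage markers -0.01, fibroblast markers -0.19, and adipocyte markers 0.68 with none passing even the unadjusted p. Adipocyte markers summed to 125 to 146 CPM in sham and 121 to 380 CPM in TAC RISC libraries, with no marker at 0.

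**Figure D3:**
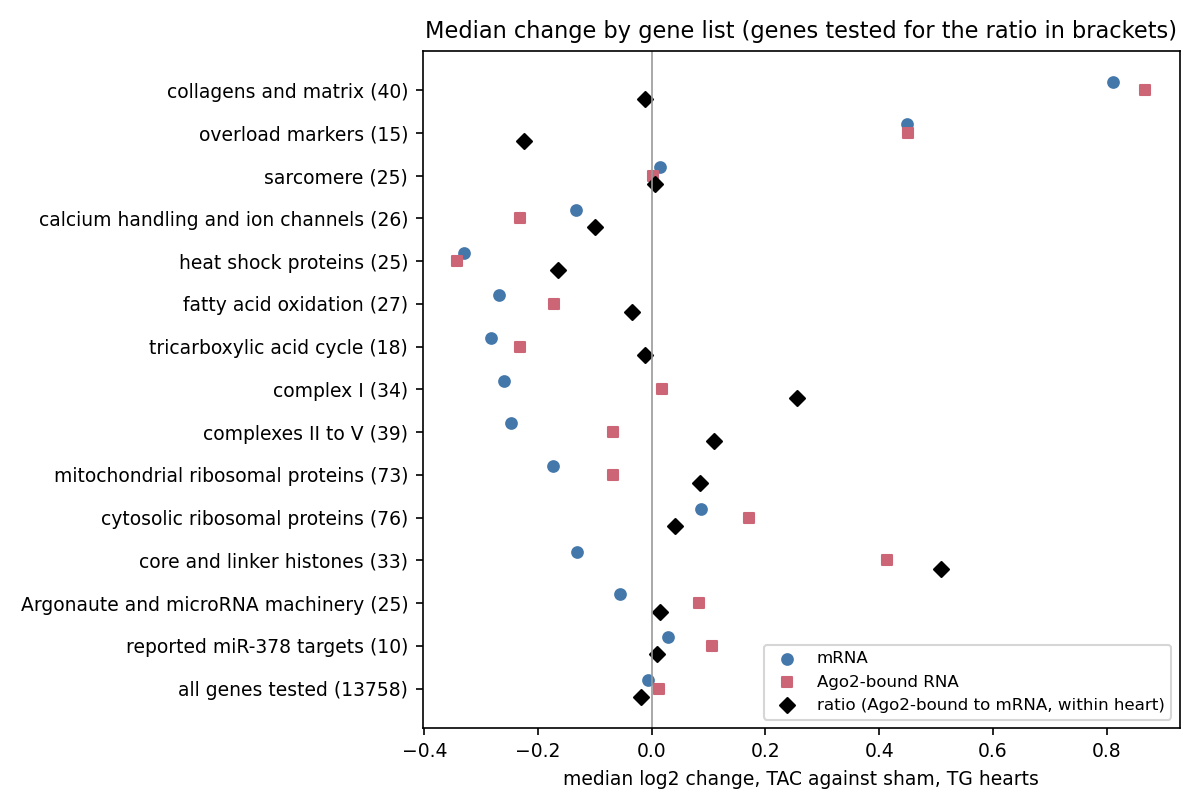
Each line is a gene list, with the median log2 change (TAC less sham, TG hearts) of its tested members in mRNA, RISC (Ago2-bound RNA) and the RISC-to-mRNA ratio. Collagens and matrix lie near 0.81 and 0.87 in mRNA and RISC with a ratio of -0.01, while histones lie at 0.51 in the ratio.

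Transcript length entered the ratio in every heart. Within a heart, the log2 ratio increased with log2 exonic length with a slope of 0.815 ± 0.0405 in the 3 sham hearts (SD, 0.780 to 0.860) and 0.782 ± 0.0603 in the 7 TAC hearts (SD, 0.701 to 0.875). The TG groups overlapped, and the difference of -0.0339 had an exact two-sided permutation p of 0.425 over 120 arrangements, the smallest possible p being 0.00833. It was -0.0514 without sham heart 1, -0.0117 without sham heart 3 and -0.0204 without TAC heart 7. In ntg hearts the slope was 0.818 ± 0.00777 in sham and 0.881 ± 0.0268 in TAC (SD), a difference of 0.0627 with that smallest exact permutation p, 0.00833. Along exonic length, the median TG ratio change was 0.258 for 162 genes under 500 bases, 0.108 in the next class of 806 genes, 0.022 over 3011 genes, and -0.038, -0.044 and -0.044 in the 3 longer classes of 5579, 3560 and 640 genes. In ntg hearts the same classes ran from -0.445, -0.202 and -0.091 to -0.032, 0.006 and -0.004. The complex I list had a median exonic length of 666 bases against 2896 bases over all genes.

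The 3′ UTR was then separated from the rest of the transcript in a regression within each heart, added after the data were seen. The TAC-less-sham difference of its coefficient was 0.00804 in TG hearts (exact two-sided permutation p = 0.642) and 0.0526 in ntg hearts (exact p = 0.00833, the smallest possible). With 1 TG heart left out the TG value ran from 0.000403 to 0.0227, at 0.00103, 0.000403 and 0.0227 without sham hearts 1, 2 and 3 and 0.000488 without TAC heart 4. For the rest of the exons the TG difference was -0.0522 (exact p = 0.0917). Genes with a 3′ UTR of at least 4000 bases, 699 in number, had a median ratio change of 0.056 in TG and 0.130 in ntg hearts. The Rn45s share of RISC counts was 58.9% ± 2.05 in TG sham and 56.8% ± 5.28 in TG TAC hearts (SD), a difference of -2.08 percentage points (exact two-sided permutation p = 0.55). It was -0.933 without sham heart 3, -0.688 without TAC heart 4 and -1.25 without TAC heart 5.

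**Figure D4:**
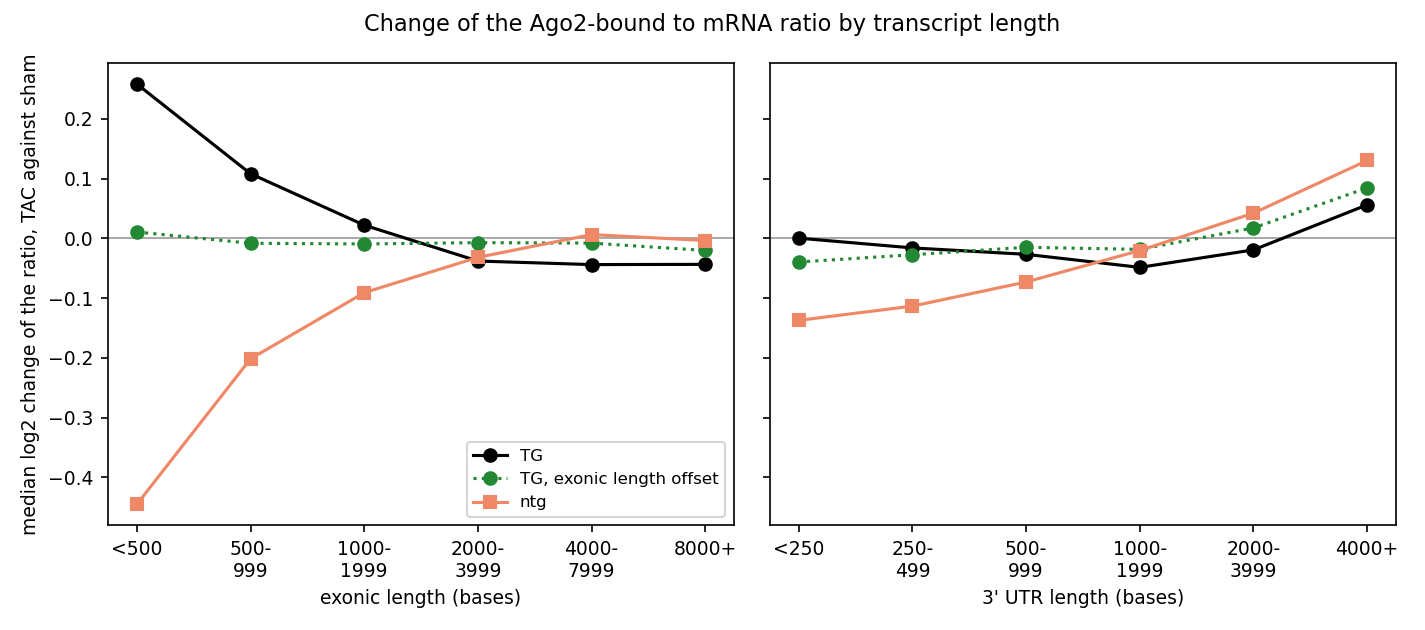
Median log2 RISC-to-mRNA ratio change (TAC less sham) by class of exonic length (left) and 3′ UTR length (right) in bases, for TG hearts, TG hearts with the length offset, and ntg hearts. Without the offset, genes with exons under 500 bases are at 0.258 in TG and -0.445 in ntg hearts, and the longest exonic classes lie near 0.

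The TG effect was tested against the ntg effect in the same fit. In ntg hearts 3 genes were called in the ratio (0.0218%), all lower after TAC. The difference of the 2 overload effects was called for 26 genes, 25 with a higher and 1 with a lower effect in TG hearts (0.182% and 0.00727%, 0.189% in all). With the length offset 8 were called (0.0581%), 7 higher and 1 lower (0.0509% and 0.00727%). At an unadjusted p below 0.05 the difference was higher in TG for 783 genes and lower for 373 (5.69% and 2.71%, 8.4% in all). Without ntg sham heart 3 or TG sham heart 3 the count was 0, and without TG TAC heart 4 it was 79. It was 9 and 11 without ntg sham hearts 1 and 2, 1 and 11 without TG sham hearts 1 and 2, 4 without ntg TAC heart 2 and 3 without TG TAC heart 3. For the 4 genes called in TG hearts the ntg changes were -0.19 for Hlx, -0.07 for Zfp36l2, 0.07 for Zfp703 and 0.43 for Mfsd4. Their differences were 1.25, 1.06, 0.82 and 0.44 (adjusted p = 0.0563, 0.0966, 0.19 and 0.649, edgeR quasi-likelihood test), so none was called as differing between genotypes.

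Coq10b encodes a mitochondrial protein that handles coenzyme Q, and its effect differed by 3.01 (adjusted p = 0.034). Its ratio was -0.17, -0.27 and -0.84 in TG sham hearts and -0.25 to 1.73 (median 0.50) in TG TAC hearts, against 1.15, 1.44 and 2.45 in ntg sham and -0.98 to 0.96 in ntg TAC hearts. The sham hearts of the 2 genotypes were apart and the TAC hearts overlapped. Gm13889, a gene of unassigned function, differed by 2.16 (adjusted p = 0.0317), with ratios of -1.49, -1.12 and -1.61 in TG sham and -0.78 to 0.04 (median -0.54) in TG TAC hearts, and of 0.57, 0.20 and 0.15 in ntg sham and -1.71 to -0.54 in ntg TAC hearts. Again the sham groups were apart, and the TAC groups overlapped.

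Alkbh7, a mitochondrial dioxygenase, differed by 2.08 (adjusted p = 0.00845), with -3.23, -2.31 and -3.20 in TG sham and -3.06 to -1.65 (median -1.93) in TG TAC hearts, against -1.93, -1.84 and -1.28 in ntg sham and -3.55 to -2.54 in ntg TAC hearts. The sham groups were apart, and the TAC groups overlapped through TG TAC heart 4 alone, the next TG TAC heart being at -2.26. Ptger1, a prostaglandin E receptor gene whose count may include reads of other gene models, differed by 1.85 (adjusted p = 0.0317), with -1.26, -0.77 and -1.5 in TG sham and -0.70 to 0.31 in TG TAC hearts, and ntg ratios of -0.07, 0.66 and 0.21 in sham and -1.29 to 0.12 in TAC hearts. Lyz1, a lysozyme with a close relative in Lyz2, was the single gene with a lower effect in TG hearts, at -2.46 (adjusted p = 0.035). Its TG ratios were 1.24, 0.10 and 1.48 in sham and -1.07 to 0.77 (median -0.31) in TAC hearts, against -2.20, -1.84 and -1.61 and -1.20 to -0.17 in ntg hearts. In Ptger1 and Lyz1 the sham groups were apart as well. The differences of Coq10b, Gm13889, Alkbh7, Ptger1 and Lyz1 thus all came with a gap between the sham groups. How many of all genes have such a gap was not counted. Of the other 21 genes, named after their values were seen, Timm23, part of the mitochondrial inner membrane import channel, differed by 1.28 (adjusted p = 0.00845). With the length offset it stayed called, as did Rpl27a, a ribosomal protein gene with near-identical copies that may split reads, and Ube3a, a ubiquitin ligase gene whose model overlaps A230073K19Rik (adjusted p = 0.0412 for each). In TG hearts alone none of the 26 was called.

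**Figure D5:**
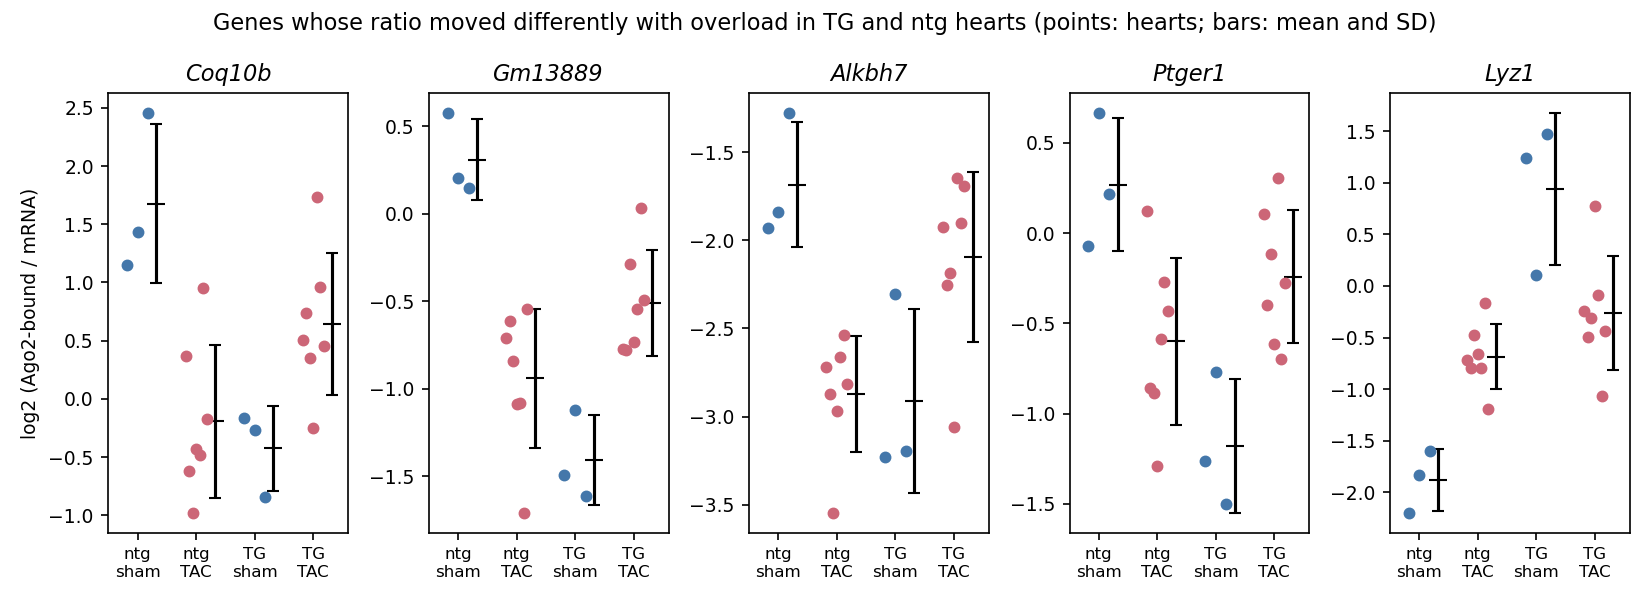
Points show the log2 RISC-to-mRNA ratio of each heart in ntg sham, ntg TAC, TG sham and TG TAC for Coq10b, Gm13889, Alkbh7, Ptger1 and Lyz1, with bars at the mean and SD. In each of these genes the sham hearts of the 2 genotypes stand apart. In Coq10b they lie at 1.15 or more in ntg against -0.17 or less in TG. In Gm13889 they lie at 0.15 or more against -1.12 or less.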

How the data were processed

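Each of the 40 libraries (20 mRNA, 20 RISC) came as deposited read counts per gene symbol, which the authors made with HTSeq from alignments by TopHat2 2.0.10 to mm10, per the submitters' processing notes. Libraries were single-end and not strand-specific, so overlapping genes share reads. The 5 summary rows and Rn45s were dropped, as were genes on X and Y. Genes were kept by edgeR's filterByExpr, scaled by TMM and tested with edgeR 4.0.16 (quasi-likelihood, robust; R 4.3.3). The ratio fit held 40 libraries with the heart as a block and a RISC term for each genotype and surgery; mRNA and RISC alone were fitted by group. The pairing of libraries comes from the animal codes in the labels; same-heart deviations correlated above 0.1 in 17 of 20 hearts (9320 genes). Adjusted p-values follow Benjamini-Hochberg over all genes tested, called below 0.05. Per-heart log2 ratios used a prior count of 2. The length offset was a loess curve (span 0.5) on log2 exonic length. It was fitted to each heart's deviation from the mean ratio of the gene over all hearts. Slopes and correlations were limited to genes averaging 5 CPM or more. The fit was tested on simulated counts before use. DESeq2 1.42.0 and limma 3.58.1 served as alternatives.

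Genes were named by rule: called genes that stay called with the length offset at 2 CPM or more in both libraries, a fixed panel, called members of 33 lists, and the extreme called genes of the genotype difference. Members of lists that were not called were chosen after their values were seen. The comparison, its gene lists and its tests were chosen with earlier results of these data known. Depth was 5.58 to 24.1 M counts without Rn45s in TG libraries. Some items are not reported here.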

Additional observations from a re-analysis of the deposited data

Results flagged for a closer look

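In 3 of 57 groups of 7 TAC hearts tested, 1 heart stood far from the others, against a chance rate of about 1 in 20 groups. The log2 RISC-to-mRNA ratio of Alkbh7 was -3.06 in TG TAC heart 4, with the nearest heart at -2.26. That of Samd4b was -0.11 in TG TAC heart 2, with the nearest at 0.35. The 3′ UTR coefficient of the ratio was 0.399 in TG TAC heart 4, with the nearest at 0.357.

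The overload effect on the ratio differed between TG and ntg hearts, by the test of the difference itself, for 26 genes. The named ones are Coq10b (3.01), Gm13889 (2.16), Alkbh7 (2.08), Ptger1 (1.85) and Lyz1 (-2.46), all as log2 differences of TG less ntg. Each genotype has 3 sham hearts, and the count was 0 without TG sham heart 3 or ntg sham heart 3.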

How the results depend on the processing

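The count of 4 genes called for the TG ratio was 1 without the replicate block of the heart, 10 with TG libraries alone, 16 with RLE scaling, 14 with no filter, 39 with a mean of 5 CPM or more, 186 with DESeq2 (136 higher and 50 lower of 5489 with an adjusted p), 3 with limma, 38 with the length offset, 34 with Rn45s kept and 4 with X and Y genes kept. DESeq2 called 3 of the 4 and gave Hlx no adjusted p. Leaving out 1 TG heart gave 0 to 34, and leaving out TAC hearts 3 and 4, added after the data were seen, 24. The count of 26 for the genotype difference was 2 without the block, 5 with RLE, 3 at 5 CPM, 67 with DESeq2, 8 with limma, 8 with the length offset, 5 with Rn45s kept, 0 to 79 without 1 heart (9 and 11 without ntg sham 1 and 2, 1 and 11 without TG sham 1 and 2, 4 without ntg TAC 2, 3 without TG TAC 3), and 74 without TAC hearts 3 and 4. The mRNA count of 1807 was 974 to 1888 and the RISC count of 1103 was 484 to 1313 without 1 heart. The lowest of each came without TG sham 2. The mRNA count was 1054 without TG sham 1, and the RISC count was 617 and 582 without TG sham 1 and 3. A block of the replicate number across all groups, also added, gave 1036 and 668. Replicate numbers within an operation are nested in it and this pairing could not be fitted. Med13 ran from -0.173 to 0.00940 and Myh7 from -0.0328 to 0.172 with 1 heart left out, each turning sign without TG sham 3. The cause of these shifts was not tested. The TG length slope difference of -0.0339 ran from -0.0514 to -0.0117 and the Rn45s difference of -2.08 points from -2.95 to -0.688 with 1 heart left out, and both kept their direction in every alternative run. With 3 sham hearts and a median SE of 0.217, small ratio changes were not detectable.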

Other observations

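Over all genes, 6.57% rose and 6.65% fell in mRNA, 4.54% and 3.99% in RISC, and 5.37% and 4.95% were higher and lower in the ratio at an unadjusted p below 0.05. Of 24 cell cycle genes, 7 rose and 0 fell in TG mRNA, 1 rose and 1 fell in RISC, and the median ratio change was 0.05. Their median log2 change was 0.31 in mRNA and 0.63 in RISC, so the counts do not show a smaller change in RISC. Of 26 immediate early genes, 3 rose and 1 fell in RISC, and 4 were higher and 1 lower in the ratio at an unadjusted p below 0.05, with a median of 0.14. The circadian clock list had 2 rising and 3 falling in mRNA and 3 rising and 2 falling in RISC among 19, with a median ratio change of 0.01. Endoplasmic reticulum chaperones had 6 of 25 falling in RISC and a median ratio change of -0.05, with 3 higher and 5 lower at an unadjusted p below 0.05.

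Among the remaining lists, the median ratio change was 0.02 for 24 glycolysis genes, -0.01 for 36 translation factors, -0.07 for 27 interferon response genes and -0.18 for 21 long noncoding and snoRNA host RNAs. It was 0.03 for 45 small nucleolar RNAs, which ranged from -1.85 to 3.53, and 0.14 for 7 microRNA genes. Of 10 cardiomyocyte markers, 2 fell in mRNA and 3 in RISC, with a median ratio change of -0.18. Smooth muscle and pericyte markers had a median of -0.04, lymphocyte markers -0.11 over 6 tested genes, and the single tested blood marker -0.28. No gene of these lists was called in the ratio.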
